A study of Mus musculus with 16 samples.

Results

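The 31 genes described here make, sense and move cholesterol. They were taken by symbol from a fixed list and all 31 were found among the 28683 genes of the deposited tables. Of these, 17 encode enzymes of cholesterol synthesis, 7 encode sterol sensors and their regulators, and 7 encode proteins of cholesterol transport, efflux and storage. They were measured by Drop-seq, a droplet method in which each cell's RNA is tagged with a barcode and each molecule with a unique molecular identifier (UMI), in the hypothalamus-POA (hypothalamus and preoptic area) of 16 female mice with 1 library per mouse. Wild-type mice (CD-1;129P2 mixed background) received corn oil (n = 3) or tamoxifen (n = 5), and *Esr1* cKO mice on the same background received oil (n = 4) or tamoxifen (n = 4). Mice were 8 to 10 weeks old when the experiments began, and injections of oil or of tamoxifen at 0.1 mg/kg were given under the skin daily for 4 weeks. In the *Esr1* cKO, a floxed *Esr1* allele (the gene of estrogen receptor alpha) is recombined by a transgene that expresses Cre from *Nkx2-1*, so the deletion is limited to the *Nkx2-1* lineage, and littermates without Cre served as the wild-type mice.

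Cholesterol is built from acetyl units through mevalonate, farnesyl pyrophosphate and squalene to lanosterol, which is then trimmed and its double bonds moved and reduced. In the brain it is made locally, since plasma lipoproteins do not cross the blood-brain barrier, and myelin holds most of it. Astrocytes are known to secrete cholesterol on particles that carry apolipoprotein E. When membrane sterol is low, Scap carries the SREBP proteins (the products of *Srebf1* and *Srebf2*) to the Golgi, where they are cut and released to switch on the synthesis genes; the Insig proteins hold Scap back when sterol is plentiful. The liver X receptors (*Nr1h2* and *Nr1h3*) respond to oxysterols and switch on efflux genes. Tamoxifen is known to bind the sterol isomerase Ebp and the reductase Dhcr7, which is why these enzymes were followed in every group.

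The promoters of 4 members are shown for the letters at which the SREBP proteins and their partner NF-Y are known to bind: *Hmgcs1* and *Insig1*, long-known SREBP targets, and *Ebp* and *Dhcr7*, the enzymes that bind tamoxifen. Each run holds the 250 bases before the transcript start in RefSeq (GRCm38.p6) on the strand of the gene. Capitals mark each match, on either strand, to a sterol regulatory element type (TCACNCCAC, N any base), a CCAAT box or an E-box (CACGTG), and no matches overlap. They lie at chr13:119690101-119690350 (+), chr5:28071162-28071411 (+), chrX:8193513-8193762 (−) and chr7:143829964-143830213 (+) in the order shown.
Hmgcs1: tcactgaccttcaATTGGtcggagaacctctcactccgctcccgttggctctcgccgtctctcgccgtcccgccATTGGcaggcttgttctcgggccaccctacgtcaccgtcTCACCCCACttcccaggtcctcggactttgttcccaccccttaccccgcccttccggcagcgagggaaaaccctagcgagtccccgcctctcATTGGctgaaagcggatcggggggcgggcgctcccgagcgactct
Insig1: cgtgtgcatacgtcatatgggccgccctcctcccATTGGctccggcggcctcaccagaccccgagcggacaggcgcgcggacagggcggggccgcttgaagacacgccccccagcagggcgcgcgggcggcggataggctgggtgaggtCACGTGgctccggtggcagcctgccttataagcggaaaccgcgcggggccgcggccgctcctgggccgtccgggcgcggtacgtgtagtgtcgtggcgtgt
Ebp: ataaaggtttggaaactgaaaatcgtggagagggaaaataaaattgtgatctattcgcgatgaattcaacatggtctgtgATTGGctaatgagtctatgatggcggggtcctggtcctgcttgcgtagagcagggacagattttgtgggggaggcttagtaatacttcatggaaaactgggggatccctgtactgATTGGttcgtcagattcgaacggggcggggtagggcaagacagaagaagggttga
Dhcr7: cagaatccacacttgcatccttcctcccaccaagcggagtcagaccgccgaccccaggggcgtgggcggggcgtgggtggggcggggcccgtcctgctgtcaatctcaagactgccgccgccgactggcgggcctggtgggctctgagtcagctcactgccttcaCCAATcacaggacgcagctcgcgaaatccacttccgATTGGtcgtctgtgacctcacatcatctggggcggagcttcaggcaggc
Promoters were matched for 25 of the 31 genes, and *Fdps*, *Fdft1*, *Sqle*, *Stard4*, *Abcg1* and *Npc1* had no entry. The sterol element type was found in 1 of the 25, *Hmgcs1*, beside 1.22% of all 27025 genes with a promoter. A CCAAT box was found in 19 of 25 beside 37.5% of all genes, and the E-box in 6 of 25 beside 6.86%. A gene was counted if any of its promoters in the table held a match. The E-box genes were *Hsd17b7*, *Sc5d*, *Dhcr7*, *Insig1*, *Scap* and *Abca1*. *Dhcr7* has 3 promoters in the table. The one shown is that with the most matches of all motifs, and its E-box match lies in a promoter not shown. A match describes letters in this window and is not a measured binding site.

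After filtering, 55675 cells remained, with 1717573 to 5457033 UMIs per library and a median of 563 to 819 UMIs per cell. Cells were clustered without the 31 genes and without 35 other sterol and lipid genes, so no listed gene defined a cluster, and each cluster was named from its marker genes. The cells comprised 13597 astrocytes, 9230 oligodendrocytes, 9152 neurons, 5400 microglia, 5371 endothelial cells, 4433 polydendrocytes (oligodendrocyte precursors), 3190 ependymal cells, 2362 mural cells, 970 fibroblasts and 1970 unnamed cells. Of the unnamed cells, 1752 lay in the endothelial cluster and entered no type. Their leading genes mixed pericyte markers such as *Rgs5*, *Vtn* and *Kcnj8* with *Gkn3*, a marker of arterial endothelial cells and the first of them, and the endothelial marker *Ly6c1*. Libraries S10 (wild-type oil) and S11 (*Esr1* cKO tamoxifen) stood apart. Their files held no barcode with fewer than 100 genes, whereas those of the other libraries reached down to 20, and both lay outside the range of the other 14 for 27.8% of the 16626 genes tested in all cells. Among the 31 genes this was so for 2, the squalene epoxidase gene *Sqle* (78.6 and 75.3 CPM, UMIs of the gene as a share of all UMIs of the cells on a scale of 1000000, against 51.9 to 71.5) and the lanosterol synthase gene *Lss* (42.2 and 43.2 against 23.1 to 36.9), both above. The main values of the group comparisons are therefore given with and without these libraries. Levels and fold changes across cell types and finer clusters cover all libraries unless stated. In addition, S13 to S16 shared 303 to 359 cell barcodes with each other, and 1717 cells of all libraries carried a barcode seen in another library. Profiles of the same barcode in S13 to S16 had median correlations of 0.585 to 0.634, against 0.162 to 0.176 for different barcodes. S5 shared 10 to 42 barcodes with each of them, with medians of 0.321 to 0.408. These libraries, which come from different groups, may thus not be fully independent, and the cause was not tested. *Esr1* in neurons ran from 44.0 to 86.5 CPM in wild-type oil libraries, 57.2 to 74.4 in wild-type tamoxifen, 41.4 to 60.0 in *Esr1* cKO oil and 17.1 to 74.0 in *Esr1* cKO tamoxifen libraries. The tags come from the 3′ ends of transcripts and need not lie in the deleted part, so this level does not check the genotype.

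Summed over the 17 synthesis genes, levels were highest in astrocytes and oligodendrocytes and lowest in microglia. Astrocytes held 1134 ± 152 CPM (SD, n = 16 libraries, as throughout unless stated) and oligodendrocytes 1010 ± 127, and the astrocyte sum was the higher in 12 of 16 libraries. Polydendrocytes followed at 765 ± 108 CPM, neurons at 627 ± 57.0 and ependymal cells at 512 ± 77.6. Each of these steps down, from oligodendrocytes on, held in 14 or 15 of the 16 libraries, and that from ependymal cells to fibroblasts in 13. The sums of fibroblasts (382 ± 110 CPM), mural cells (355 ± 103) and endothelial cells (344 ± 41.7) were not ordered beyond their spread, as the first was higher than the next in 10 of 16 libraries and the second in 8. Microglia lay last at 218 ± 57.3 CPM and below endothelial cells in all 16. Without S10 and S11 the order of the types was the same, and astrocytes were above oligodendrocytes in 10 of 14 libraries. These levels are shares of each type's own UMIs. Counted per cell the order differs, since neurons held the most RNA: 1000 neurons yielded 1295 UMIs of the synthesis genes, 1000 oligodendrocytes 938, 1000 astrocytes 681 and 1000 microglia 164.

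**Figure D1:**
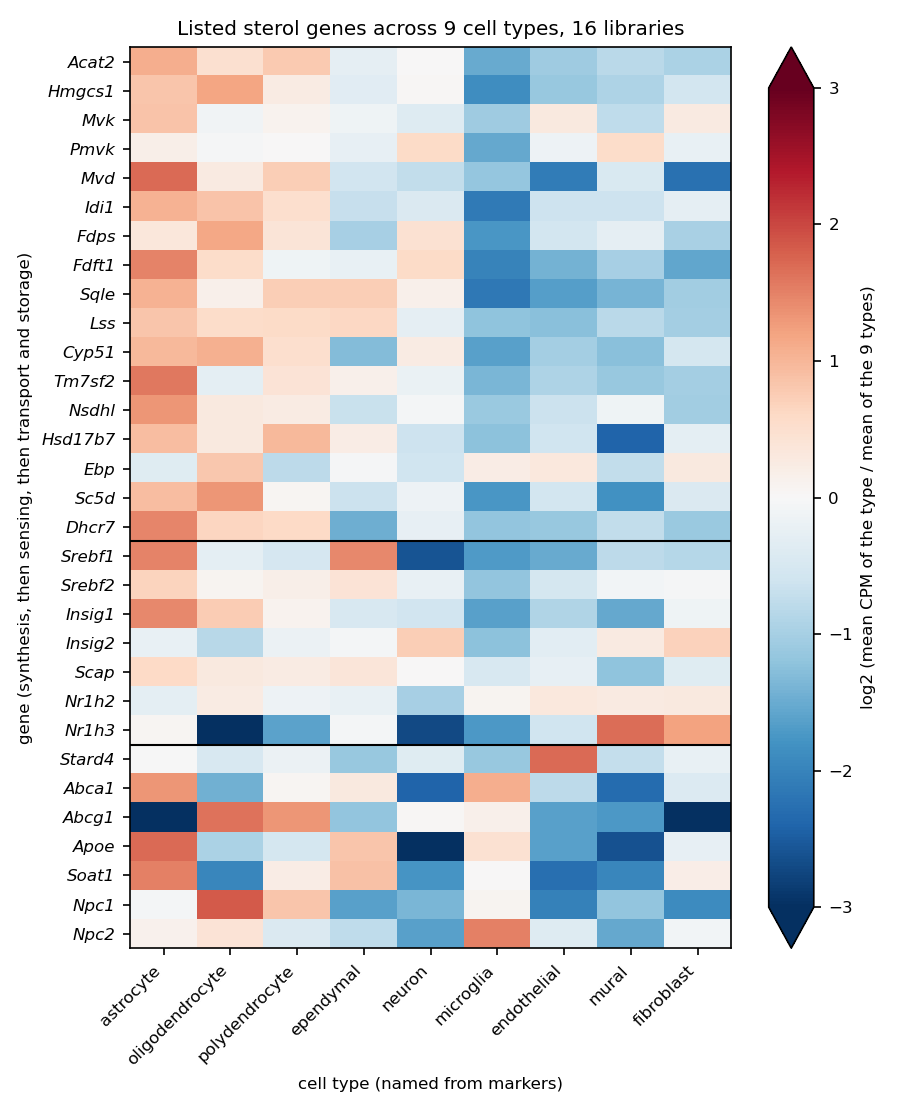
Level of each of the 31 genes in 9 cell types, colored by the log2 ratio of the mean CPM in the type to the mean over types, with genes ordered by role. Most synthesis genes are highest in astrocytes or oligodendrocytes, and *Npc2* and *Stard4* stand out in microglia and endothelial cells. *Insig2* is about equally high in neurons and fibroblasts.

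By mean level, astrocytes came first for 17 of the 31 genes and oligodendrocytes for 7 (*Hmgcs1*, *Fdps*, *Cyp51*, *Ebp*, *Sc5d*, *Abcg1* and *Npc1*). Neurons came first for *Pmvk* and *Insig2*, endothelial cells for *Nr1h2* and *Stard4*, polydendrocytes for *Hsd17b7*, mural cells for *Nr1h3* and microglia for *Npc2*. The leading type was above the next in every library for *Hmgcs1*, *Fdps*, *Fdft1*, *Tm7sf2*, *Nsdhl*, *Stard4*, *Apoe*, *Npc1* and *Npc2*. How often each type leads over all genes, or does so in every library, is not given here. For *Pmvk*, *Hsd17b7*, *Srebf1*, *Insig2*, *Nr1h2* and *Cyp51*, the leading type was above the next in 8 to 10 of 16 libraries, so first and second place did not differ beyond their spread.

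To test these levels, each type was compared with all other named cells of the same library by edgeR's quasi-likelihood test with the library as a block, and p-values were adjusted over all genes tested (threshold 0.05). Fold changes are log2 ratios on the TMM scale and can differ from ratios of CPM. In astrocytes 30 of the 31 genes passed the filter on low counts, of which 23 were higher and 1, *Abcg1*, was lower. Over all 12122 genes tested in astrocytes, 32.2% were higher and 41% lower, and the median log2 fold change was -0.08 against 1.10 for the listed genes. Oligodendrocytes showed 21 of 30 higher and 4 lower (31.9% and 43.9% of all genes), with a listed median of 0.60 against -0.12. The synthesis enzymes made up most of both: 15 of 17 were higher in astrocytes and 14 of 17 in oligodendrocytes, and none was lower. By mean CPM all 23 astrocyte genes and 20 of the 21 oligodendrocyte genes were also above the rest, the exception being *Sqle* (62.9 against 67.3 CPM). Without S10 and S11, 24 and 21 genes were higher.

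Neurons and microglia lay on the other side. In neurons 26 of 30 genes were lower and 4 higher (41% and 40.5% of all genes), among them all 7 transport genes on the lower side. In microglia 18 of 27 were lower and 8 higher (43.7% and 30.6%), but the roles split: 13 of 14 synthesis genes were lower and 6 of 7 transport genes higher. Of those 6, *Abcg1* and *Npc1* were higher only on the TMM scale and not by mean CPM. *Apoe* was higher in the type as a whole. By mean CPM its larger and smaller microglial clusters lay below the rest (2998 and 3089 against 3731). Endothelial cells had 22 of 29 lower and 4 higher (42.7% and 30.1%), mural cells 19 of 27 lower and 1 higher (34.9% and 17.5%), and fibroblasts 14 of 27 lower and 1 higher (35.3% and 14.1%). Ependymal cells had 15 of 29 lower and 8 higher (35% and 30.4%). Polydendrocytes showed 9 of 29 higher and 7 lower (30.8% and 33.1%), shares close to those of all genes, and 7 higher and 9 lower with DESeq2's size factors in place of TMM. These size factors also moved the median log2 fold change of all genes, by -0.032 to -0.44 over the 9 types and by more than 0.1 in size in endothelial, ependymal, fibroblast, microglia and mural cells. The largest move was in mural cells, from -0.23 to -0.67, where 0 listed genes were then higher and 24 lower.

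Among the first enzymes of the pathway, *Hmgcs1*, which makes the HMG-CoA that feeds mevalonate, was highest in oligodendrocytes. Its level there ran from 158 to 307 CPM over the libraries with a median of 240, against 132 to 263 (median 186) in astrocytes and 7.50 to 48.7 (median 31.9) in microglia. Oligodendrocytes were above astrocytes in each of the 16 libraries, although the ranges over libraries overlap. Against the rest the log2 fold change of *Hmgcs1* was 1.58 ± 0.07 (SE) in oligodendrocytes, 0.88 ± 0.06 in astrocytes and -1.78 ± 0.14 in microglia (edgeR adjusted p = 3.31e-21, 3.39e-15 and 6.97e-15). *Acat2*, the cytosolic thiolase one step earlier, was highest in astrocytes (90.4 ± 18.1 CPM) and above polydendrocytes in 12 of 16 libraries. The next 3 kinase and decarboxylase steps were divided: *Mvk* (27.5 ± 9.53 CPM) and *Mvd* (35.1 ± 14.3 CPM) were highest in astrocytes, whereas *Pmvk* was highest in neurons, at 38.0 to 91.1 CPM with a median of 64.3. *Pmvk* was higher in neurons than in the rest by 0.67 ± 0.08 on the log2 scale (edgeR adjusted p = 4.67e-09), in 16 of 16 libraries. It was the only synthesis gene besides *Fdft1* and *Fdps* that was higher in neurons, and these were so by 0.19 ± 0.08 and 0.18 ± 0.08. Both calls were lost with DESeq2, with its size factors, without the filter on low counts, and when S12, S13, S14 or S15 alone was left out, which left 2 genes higher in neurons in place of 4. The *Fdps* call was also lost without S10 and S11, without called doublets, and when S1, S6, S8, S9, S10 or S11 alone was left out.

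*Idi1*, the isomerase that makes the building unit for farnesyl pyrophosphate, was called higher in astrocytes (17.2 against 7.67 CPM in the rest) and oligodendrocytes (15.1 against 7.98 CPM) and was tested in 3 types alone for want of counts. *Fdps*, which makes farnesyl pyrophosphate, the branch point to other isoprenoids, was 99.3 ± 18.4 CPM in oligodendrocytes and above the next type in every library. *Fdft1*, the squalene synthase gene and first committed step to sterols, was instead highest in astrocytes (65.9 to 147 CPM, median 115) and above neurons in every library. Squalene epoxidase (*Sqle*), a rate-limiting enzyme, was 116 ± 26.6 CPM in astrocytes, followed by ependymal cells at 94.5 CPM. *Sqle* and *Lss* were the synthesis genes that were higher in ependymal cells (0.66 ± 0.10 and 0.69 ± 0.12 log2, edgeR adjusted p = 8.15e-07 and 4.94e-06). Of the other synthesis genes tested there, 10 were lower, from *Acat2* and *Hmgcs1* to *Dhcr7*.

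After lanosterol, *Cyp51*, the demethylase, did not separate oligodendrocytes (101 ± 21.0 CPM) from astrocytes (93.8 CPM) by library, as each led in 8 of 16. *Tm7sf2*, a sterol reductase, and *Nsdhl*, a decarboxylating dehydrogenase, were astrocyte genes: 33.8 ± 11 and 47.4 ± 12.9 CPM, above the next type in every library. *Hsd17b7*, the keto-reductase of the same step, was 34.7 ± 12.4 CPM in polydendrocytes and 33.6 CPM in astrocytes. Against the rest it was higher in both, by 0.98 ± 0.15 and 1.31 ± 0.14 on the log2 scale (edgeR adjusted p = 2.28e-07 and 1.86e-10). *Sc5d*, the desaturase that acts between Ebp and Dhcr7, was highest in oligodendrocytes, at 58.3 to 155 CPM with a median of 117 (log2 fold change 1.74 ± 0.09, edgeR adjusted p = 1.48e-19), and 15 of 16 libraries had it above astrocytes.

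The enzymes that bind tamoxifen had different leading types. *Ebp* in oligodendrocytes ran from 35.4 to 80.0 CPM with a median of 51.9, and in astrocytes from 3.76 to 41.4 with a median of 20.4. All 16 libraries had more in oligodendrocytes than in astrocytes. Relative to the rest, *Ebp* was higher in oligodendrocytes by 1.48 ± 0.10 on the log2 scale (edgeR adjusted p = 3.58e-16), in microglia by 0.65 ± 0.17 and in endothelial cells by 0.51 ± 0.16 (0.34 with DESeq2, where the call was lost), and lower in neurons (-0.81 ± 0.11) and polydendrocytes (-0.92 ± 0.16). Astrocytes were at -0.22 ± 0.13, which did not pass (edgeR adjusted p = 0.116). *Dhcr7*, the last step to cholesterol, ran from 24.5 to 109 CPM in astrocytes with a median of 69.5, against 20.3 to 57.2 with a median of 38.5 in oligodendrocytes. It was higher than in the rest in astrocytes (1.86 ± 0.12, edgeR adjusted p = 1.51e-16), oligodendrocytes (0.89 ± 0.10) and polydendrocytes (0.33 ± 0.13), and lower in the other 6 types, most of all in ependymal cells (8.86 CPM, -1.85 ± 0.21). Few single cells showed a UMI of either gene. *Dhcr7* was seen in 3.97% of astrocytes (median 483 UMIs) and 0.950% of endothelial cells (median 612), and in 3.71% and 0.359% after each cell was thinned to 500 UMIs, which left out 7204 and 2031 shallower cells. *Ebp* was seen in 4.69% of oligodendrocytes and 1.53% of polydendrocytes, and in 2.35% and 1.01% after thinning.

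Among the sensing genes, *Srebf1*, which encodes SREBP-1, was high in astrocytes (106 to 267 CPM, median 192) and in ependymal cells (101 to 257 CPM, median 202), with fully overlapping ranges. In neurons it was 7.74 to 17.4 CPM, below every astrocyte and ependymal value. Its log2 fold change against the rest was 2.31 ± 0.07 in astrocytes and 1.88 ± 0.10 in ependymal cells (edgeR adjusted p = 9.74e-27 and 3.57e-17), and -3.09 ± 0.09 in neurons. *Srebf2*, the SREBP-2 gene and main driver of synthesis, varied less, from 89.8 CPM in astrocytes and 74.8 in ependymal cells to 25.1 in microglia. *Scap*, the SREBP escort, was higher in astrocytes (0.71 ± 0.09), oligodendrocytes (0.59 ± 0.09) and ependymal cells (0.38 ± 0.14, edgeR adjusted p = 0.0136, but 0.0997 without S10 and S11) and lower in neurons and mural cells. The Insig genes led in different types. *Insig1*, itself an SREBP target, was highest in astrocytes (85.2 to 240 CPM, median 157) and oligodendrocytes (62.0 to 128 CPM, median 103) and lower in neurons (-1.03 ± 0.09). *Insig2* was 83.9 to 167 CPM in neurons (median 123) against 30.4 to 57.6 (median 41.6) in oligodendrocytes, 2 ranges that did not meet. Its mean in fibroblasts, 124 CPM, was close to the 128 CPM of neurons. It was higher in neurons by 1 ± 0.07 and in fibroblasts by 0.55 ± 0.17 (edgeR adjusted p = 1.09e-13 and 0.00382). The fibroblast call was lost without the filter on low counts (0.40).

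The receptor gene *Nr1h2* (LXR beta) was low in every type, at 12 CPM in neurons and 19.7 to 29.8 in the others. It was higher in oligodendrocytes (0.94 ± 0.12), mural cells (0.86 ± 0.25, a call lost with DESeq2 or its size factors), endothelial cells (0.81 ± 0.15) and microglia (0.68 ± 0.20). *Nr1h3* (LXR alpha) had too few counts to pass the filter in any type as named here. It passed where the unnamed cells of the endothelial cluster (15.1 to 108 CPM of *Nr1h3*, median 28.0) were counted as endothelial, an alternative chosen after seeing the data. Its log2 fold change was then 1.70 ± 0.18 in endothelial cells and 2.06 ± 0.29 in mural cells. *Nr1h3* entered these tests only through the added cells, so no p is given and no weight is put on either value. The added cells carried all 5 listed pericyte markers, so the endothelial value is not one of endothelial cells alone. The mean of *Nr1h3* was 44.5 CPM in mural cells, with 0 to 218 over the libraries and a median of 28.2, 31.7 in fibroblasts, 14.5 in astrocytes and 0.608 in oligodendrocytes, where most libraries held none.

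In the transport group *Apoe*, the main lipid carrier of the brain, was highest in astrocytes (9042 to 17602 CPM, median 13524). Ependymal cells held 3851 to 9578 (median 7696) and microglia 3743 to 8410 (median 5940). Neurons held 142 to 539, below every library's value in each of these types. The log2 fold change against the rest was 2.80 ± 0.08 in astrocytes, 1.14 ± 0.07 in ependymal cells and 1.03 ± 0.10 in microglia (edgeR adjusted p = 6.29e-28, 3.29e-15 and 5.31e-13), and -4.44 ± 0.10 in neurons. The microglial type includes a myeloid cluster of 769 cells, left unnamed below, with a mean of 23544 CPM. Its larger and smaller microglial clusters held 2998 and 3089 CPM on average, below the 3731 CPM of the rest. *Apoe* was also plentiful outside cells. Barcodes with fewer than 100 genes, which are taken to hold mostly free RNA, carried 5629 ± 1512 CPM (n = 14 libraries). The kept cells of the same libraries held 3699. Low *Apoe* levels in a cell type can therefore include background, but the share of free RNA in a cell's UMIs was not tested. *Ebp* and *Dhcr7* in such barcodes were 16.3 ± 8.72 and 14.6 ± 10.2 CPM, below the 29.3 and 26.8 in all kept cells. Some low cell sets lay near or below these levels. Examples are *Dhcr7* in ciliated ependymal cells (7.50 CPM), and *Ebp* in oligodendrocyte precursors (14.2) and in *Esr1* cKO oil microglia (12.3 to 24.4). Such low levels can include background too, and how much was not tested. *Hmgcs1* and *Sqle* were 119 and 54.7 CPM in such barcodes, against 123 and 62.0 in kept cells.

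*Abca1*, which loads cholesterol on apolipoproteins, was 130 to 216 CPM in astrocytes (median 178) and 82.9 to 208 in microglia (median 147), with astrocytes above in 13 of 16 libraries. It was 14.8 to 35.6 CPM in oligodendrocytes, below all of these. Its partner in efflux *Abcg1* had another distribution: 137 to 284 CPM in oligodendrocytes (median 194), 111 to 272 in polydendrocytes (median 139) and 0 to 17.1 in astrocytes (median 7.90). The astrocyte values were below every value of oligodendrocytes and of polydendrocytes as a whole. Against the rest *Abca1* was 2.22 ± 0.08 in astrocytes, 1.80 ± 0.09 in microglia and -1.06 ± 0.11 in oligodendrocytes on the log2 scale, and *Abcg1* was -3.18 ± 0.16, 0.33 ± 0.11 and 2.27 ± 0.07 (edgeR adjusted p at most 0.00944). In polydendrocytes *Abcg1* was higher by 1.12 ± 0.09.

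*Soat1*, which esterifies cholesterol for storage, was an astrocyte gene (118 to 199 CPM, median 154; 2.48 ± 0.07 log2), with ependymal cells next at 59.2 to 171 (median 95.8; 1.19 ± 0.11). Oligodendrocytes held 13.9 CPM on average (-1.66 ± 0.14). The lysosomal exporters *Npc1* and *Npc2*, which hand cholesterol on in sequence, led in different types. *Npc1* was 150 to 223 CPM in oligodendrocytes (median 179; 2.84 ± 0.06 log2, edgeR adjusted p = 1.05e-30) and 24.4 to 66.0 in astrocytes (median 48.5), without overlap. Polydendrocytes lay between at 62.4 to 125 CPM (median 87.7; 0.67 ± 0.09). *Npc2* was 508 to 964 CPM in microglia (median 745; 2.34 ± 0.07 log2, edgeR adjusted p = 1.04e-30), 228 to 419 in oligodendrocytes and 61.7 to 115 in neurons, 3 ranges that did not meet. *Stard4*, a carrier of sterol between membranes, was 54.5 to 145 CPM in endothelial cells (median 96.9) and 13.3 to 47.7 in astrocytes, the next type. Its fold change in endothelial cells was 2.30 ± 0.11 (edgeR adjusted p = 4.6e-22), the largest of the listed genes in that type, and no other type had it higher. Without S10 and S11 the log2 fold changes were 2.51 for *Soat1* in astrocytes and 2.86 for *Npc1* in oligodendrocytes. They were 2.38 for *Npc2* in microglia and 2.34 for *Stard4* in endothelial cells.

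A direct comparison of astrocytes with oligodendrocytes, chosen after these levels were seen, found genes of the same pathway on both sides. Of 29 genes tested, 17 were higher in astrocytes and 9 in oligodendrocytes, where 37.4% and 38.1% of all 8191 genes tested were higher. *Soat1* (3.40 ± 0.12 log2), *Abca1* (2.67 ± 0.10), *Apoe* (2.53 ± 0.07), *Tm7sf2* (1.70 ± 0.18) and *Srebf1* (1.62 ± 0.08) lay farthest to the astrocyte side. *Abcg1* (-4.67 ± 0.14), *Npc1* (-1.98 ± 0.08), *Ebp* (-1.34 ± 0.13) and *Fdps* (-0.95 ± 0.11) lay farthest to the oligodendrocyte side. Each of these 9 genes had the same side in at least 15 of 16 libraries. Without S10 and S11 the ends were 3.35 for *Soat1* and -4.60 for *Abcg1*, and *Ebp* was -1.39. Of the 16 synthesis genes tested, 9 were higher in astrocytes and 5 in oligodendrocytes (*Hmgcs1*, *Fdps*, *Cyp51*, *Ebp* and *Sc5d*). *Cyp51* was called on the TMM scale (-0.24 ± 0.09, edgeR adjusted p = 0.017), although by CPM astrocytes were higher in 8 of 16 libraries. *Lss* (0.12 ± 0.12) and *Pmvk* (0.10 ± 0.12) did not pass, nor did *Scap* among the sensors (0.16 ± 0.11). By CPM, astrocytes were higher in 13, 13 and 14 of 16 libraries for these genes.

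**Figure D2:**
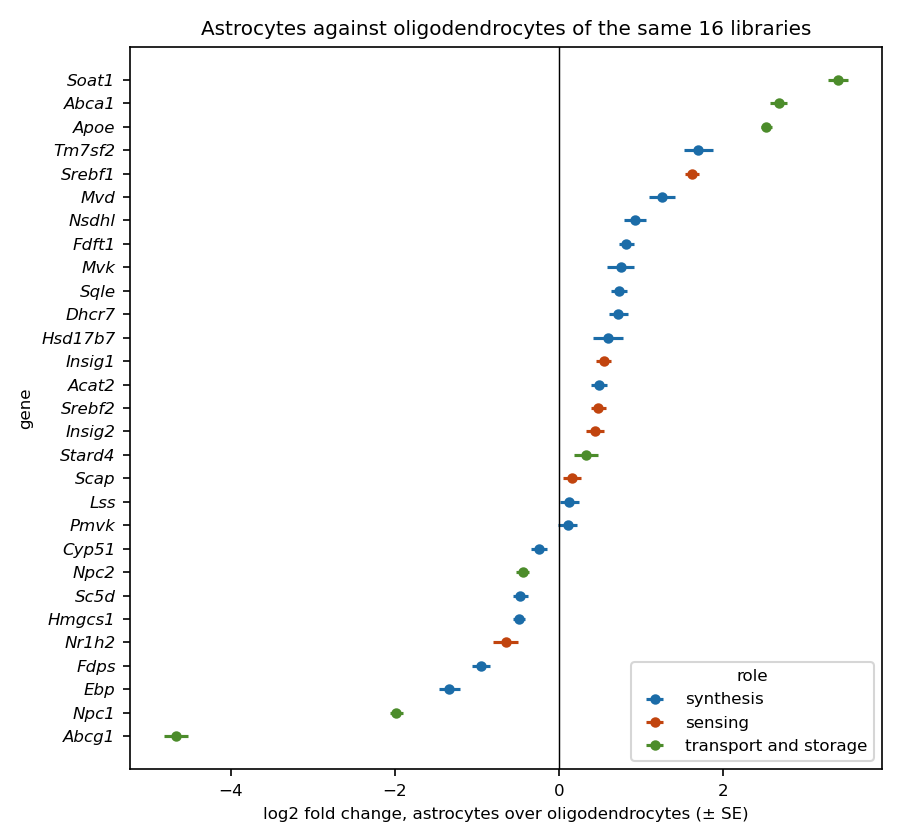
Log2 fold change of 29 genes between astrocytes and oligodendrocytes of the same library, with bars of 1 SE and color by role, positive where astrocytes are higher. *Soat1* at 3.40 and *Abcg1* at -4.67 mark the ends, and synthesis genes lie on both sides.

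Finer clusters of the same cells were compared as a description, without a test. Along the oligodendrocyte lineage the synthesis sum was 704 ± 106 CPM in precursors (4087 cells), 1139 ± 385 in committed precursors (346 cells, marked by *Gpr17* and *Bmp4*) and 1091 ± 158 in the larger oligodendrocyte cluster (5095 cells). The committed precursors were above precursors in 14 of 16 libraries and did not separate from the larger oligodendrocyte cluster, being higher in 7 of 16. A smaller oligodendrocyte cluster (4134 cells, median 498 UMIs per cell against 1030) held 806 ± 111 CPM, less than the larger in all 16 libraries. *Acat2* had a mean of 61.6 CPM in precursors and 142 in committed precursors, and *Fdft1* of 31.8 and 71.3. The efflux transporter and the carrier had the other order: *Abcg1* was 186 ± 55.1 CPM in precursors, 21.7 ± 32.3 in committed precursors and 208 ± 44.3 in oligodendrocytes, and *Apoe* was 3254 ± 666 in precursors and 688 ± 463 in committed precursors. For both genes committed precursors were below precursors in 16 of 16 libraries.

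**Figure D3:**
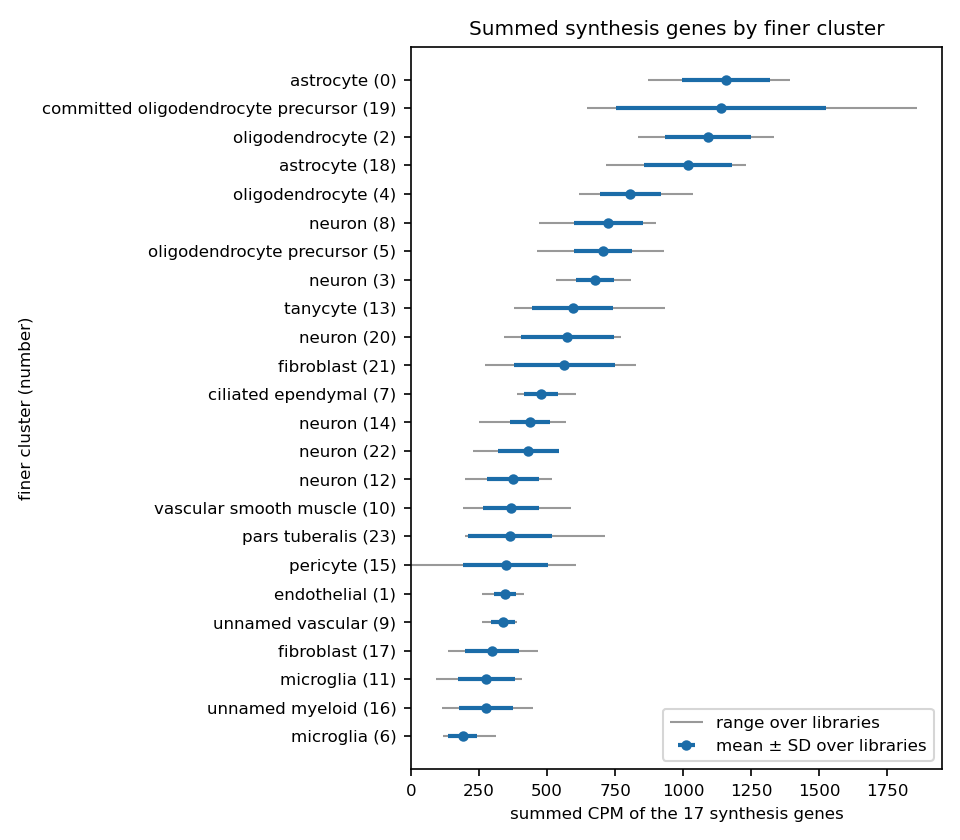
Summed CPM of the 17 synthesis genes in each finer cluster, with a point and bar for the mean ± SD over libraries and a thin line for their range. Astrocytes, committed oligodendrocyte precursors and the larger oligodendrocyte cluster have means above 1000 CPM, and the larger microglial cluster has the lowest at 189.

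Within the ependymal type, tanycytes (1357 cells, marked by *Rax* and *Col23a1*) had a synthesis sum of 593 ± 148 CPM and ciliated ependymal cells (1921 cells) 476 ± 62.6, with tanycytes above in 14 of 16 libraries. Tanycytes held more *Hmgcs1* (131 against 62.1 CPM), *Soat1* (141 against 70.2), *Npc2* (264 against 81.5) and *Apoe* (11028 against 5330), each in 16 of 16 libraries. *Sqle* was the other way round, at 69.4 CPM in tanycytes and 110 in ciliated cells. Within the myeloid type, a cluster of 769 cells stood apart by *Apoe*. It carried all 5 markers listed for perivascular macrophages, but 1 of them (*Pf4*) was among its 10 leading genes, which also held *S100a8* and *S100a9*, genes of neutrophils, and *Cd74*, *H2-Eb1*, *H2-Aa* and *H2-Ab1* of antigen presentation. It is therefore left unnamed. It held 14750 to 30730 CPM with a median of 22221, against 1094 to 4811 (median 3134) in the larger microglial cluster, and the ranges did not meet. Its synthesis sum was 274 ± 99.3 CPM against 189 ± 52.3, higher in 14 of 16 libraries. Among mural cells, *Nr1h3* was higher in pericytes, with 0 to 689 CPM (mean 113, n = 15 libraries) against 0 to 29.4 (mean 6.71) in vascular smooth muscle, higher in 13 of 15 libraries. The pericyte cluster held 882 cells with a median of 396 UMIs per cell, so these levels rest on few UMIs per library.

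The other 35 sterol and lipid genes of neighboring steps gave the setting for the members. In astrocytes 17 of 34 tested were higher and 8 lower, led by *Lcat* (4.71 ± 0.13 log2), which esterifies cholesterol on secreted particles, *Fads2* (3.58), a fatty acid desaturase, and *Clu* (3.22), another apolipoprotein. In oligodendrocytes 16 of 33 were higher and 14 lower, led by *Apod* (4.35), *Scd2* (2.65), a fatty acid desaturase, and *Cyp27a1* (2.50), which makes an oxysterol. Neurons had 7 of 34 higher and 21 lower. The leading one was *Cyp46a1* (2.35), the hydroxylase by which neurons turn over cholesterol, followed by the efflux transporter *Abcg4* (1.66). Microglia had 10 of 33 higher, led by *Mylip* (3.92) and *Lpl* (2.95), and endothelial cells 4 of 33, led by *Tspo* (3.41) and *Scarb1* (2.82). The shares of all genes that were higher and lower in these types are those given above.

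To ask whether tamoxifen or the loss of *Esr1* changed these genes, the UMIs of each cell type were added up within a library and edgeR fitted the 4 groups together. The 31 genes gave 188 tested pairs of gene and cell set over the 9 types and all cells together. In no comparison did a pair pass an adjusted p of 0.05. The count was 0 for tamoxifen in wild-type mice, 0 for tamoxifen in *Esr1* cKO mice, 0 for *Esr1* cKO against wild-type under oil, 0 under tamoxifen and 0 for the interaction, and it was 0 in each with DESeq2. Over all genes and sets (79532 pairs), edgeR called 0%, 0%, 0%, 0.00126% and 0%, the nonzero share being 1 gene in neurons (0.00806% of those tested there). At an unadjusted p under 0.05 there were 2, 2, 12, 2 and 6 of the 188 pairs, which is 1.06%, 1.06%, 6.38%, 1.06% and 3.19%, beside 2.95%, 3.56%, 4.99%, 3.09% and 4.74% of all pairs. Without S10 and S11 there were 8, 6, 7, 6 and 7 of 191 pairs at an unadjusted p under 0.05. This is 4.19%, 3.14%, 3.66%, 3.14% and 3.66%, beside 4.95%, 4.71%, 6.29%, 3.46% and 5.85% of all 81591 pairs. At an adjusted p of 0.05 again 0 of the listed pairs passed, while 0.00981%, 0.0208%, 0.00613%, 0.0147% and 0.0196% of all pairs did. The typical standard error of a member was large, with medians of 0.295 to 0.443 on the log2 scale, and in simulated data of this design a log2 fold change of 1 was called for 6.5% of changed genes in neurons and 5% in astrocytes, and one of 2 for 84.5% in both.

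In wild-type mice the synthesis sum over all cells was 629, 671 and 762 CPM in the oil libraries and 666 to 749 with a median of 703 in the tamoxifen libraries. The highest oil value was that of S10, and the groups overlapped with or without it. In *Esr1* cKO mice the sum was 602 to 693 CPM under oil (median 640) and 561 to 731 under tamoxifen (median 654), again overlapping. Of the 17 synthesis genes, 11 had a log2 fold change above 0 for tamoxifen in wild-type mice (median 0.05) and 7 in *Esr1* cKO mice (median -0.03). Leaving out S10 and S11 moved these to 15 of 17 (median 0.23) in wild-type and 4 of 17 (median -0.08) in *Esr1* cKO mice, beside medians of 0.02 and -0.00348 over all genes. None of these genes passed with 14 libraries either, and the wild-type oil group then held 2 mice. The 17 genes were measured in the same libraries, so their counts above 0 are not separate evidence. The share of all genes above 0 is not given here.

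**Figure D4:**
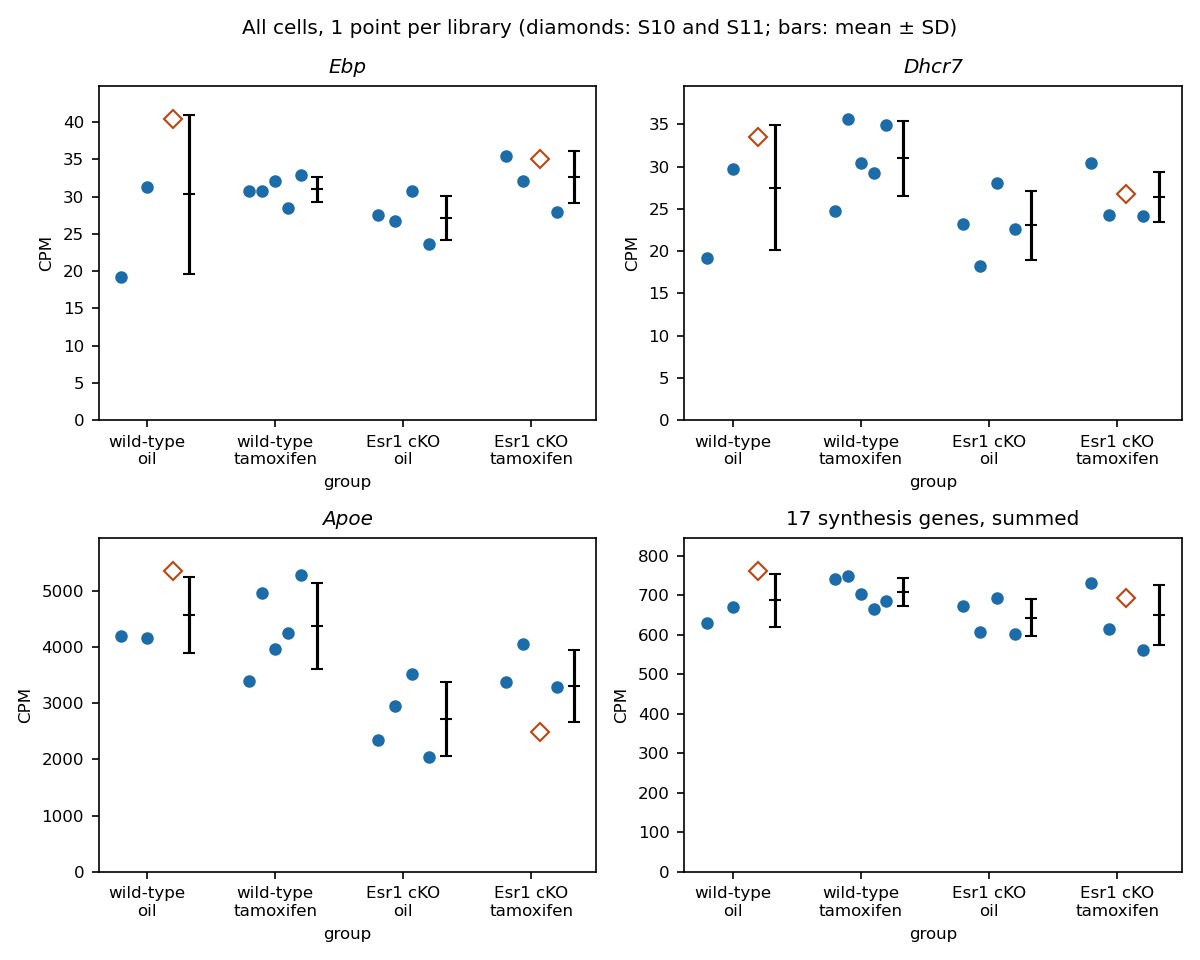
CPM of *Ebp*, *Dhcr7* and *Apoe*, and summed CPM of the 17 synthesis genes, over all cells of each library in the 4 groups, with diamonds for S10 and S11 and a bar for each group's mean ± SD. The groups overlap for the synthesis sum, *Ebp* and *Dhcr7*. For *Apoe* the 4 oil libraries of *Esr1* cKO mice (2037 to 3518) lie below the 3 of wild-type mice (4163 to 5354), a difference that did not pass an adjusted p of 0.05. The share of all genes that separate these libraries as fully is not given here. Astrocytes were 13.9% to 26.3% of the kept cells in the former and 27.4% to 29.1% in the latter.

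*Ebp* over all cells was 19.2, 31.3 and 40.4 CPM in wild-type oil libraries S1, S5 and S10, and 28.5 to 32.9 with a median of 30.8 in wild-type tamoxifen libraries. In *Esr1* cKO mice it was 23.6 to 30.8 CPM under oil and 27.9 to 35.4 under tamoxifen. The tamoxifen values of wild-type mice fell inside the range of the 3 oil values. The log2 fold change of tamoxifen against oil was -0.0022 ± 0.19 in wild-type (0.30 without S10 and S11) and 0.25 ± 0.19 in *Esr1* cKO mice (0.16 without). By type the wild-type fold changes of *Ebp* ran from -0.30 in oligodendrocytes to 0.35 in astrocytes over 6 types. *Dhcr7* over all cells was 19.2, 29.8 and 33.5 CPM in wild-type oil libraries and 24.8 to 35.6 under tamoxifen, and 18.3 to 28.1 and 24.2 to 30.4 in *Esr1* cKO mice. Its log2 fold change was 0.15 ± 0.20 in wild-type (0.35 without S10 and S11) and 0.18 ± 0.19 in *Esr1* cKO mice (0.13 without). The groups overlapped in both genotypes. By type *Dhcr7* ran from -0.03 to 0.46 over 4 types in wild-type and from 0.10 to 0.66 in *Esr1* cKO mice.

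**Figure D5:**
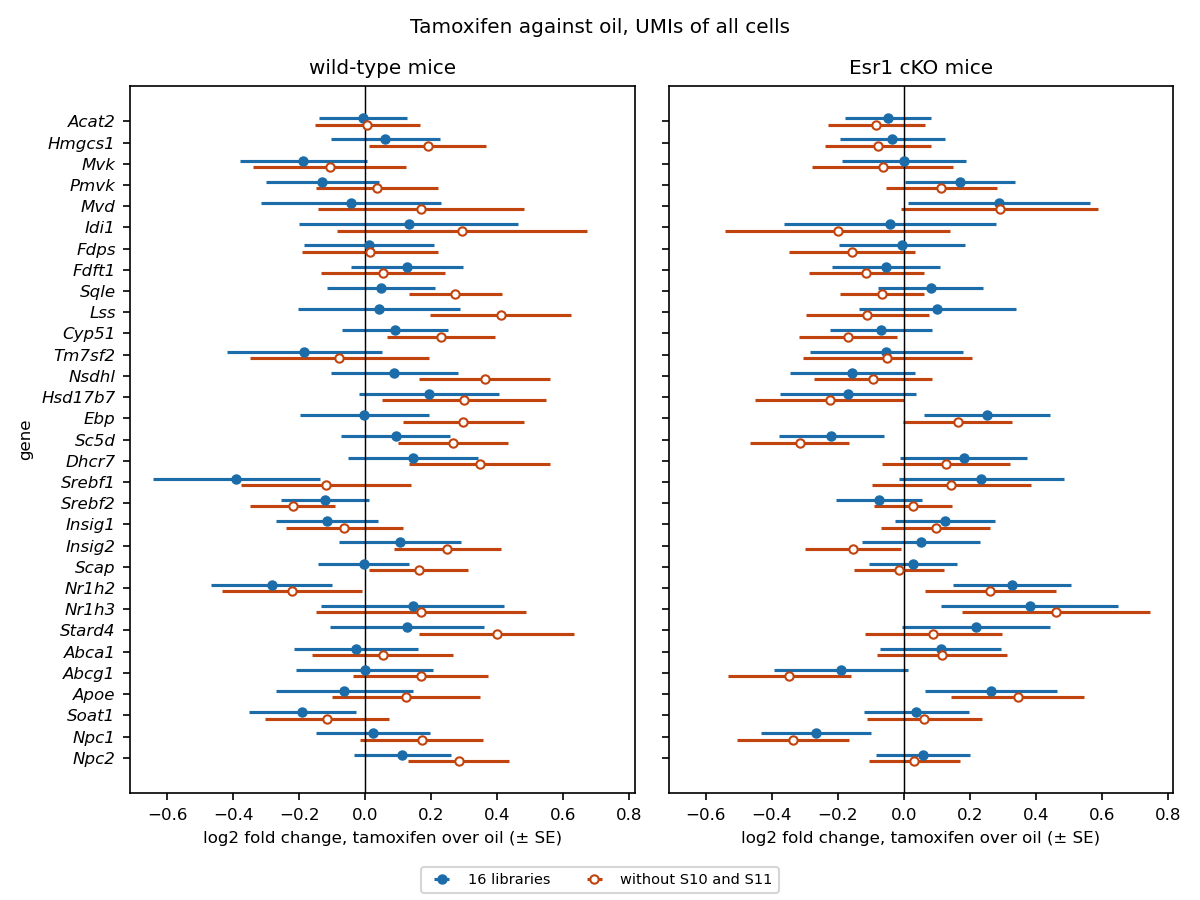
Log2 fold change of tamoxifen against oil over all cells for the 31 genes, with wild-type mice on the left and *Esr1* cKO mice on the right, with bars of 1 SE, for 16 libraries and without S10 and S11. No gene passed an adjusted p of 0.05 in either genotype, and the wild-type synthesis genes above 0 number 11 of 17 with all libraries and 15 of 17 without S10 and S11.

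The pairs with the smallest p were as follows. In microglia of *Esr1* cKO mice, *Apoe* was 3743 to 6073 CPM under oil and 5464 to 8410 under tamoxifen with overlap (log2 fold change 0.56 ± 0.18, edgeR adjusted p = 0.956; 0.41 without S10 and S11). This type includes the unnamed myeloid cluster, with a mean of 23544 CPM of *Apoe* against 2998 in the larger microglial cluster. The share of that cluster by library is not given here, and its part in the difference was not tested. *Ebp* in microglia of *Esr1* cKO mice was 18.9, 12.3, 24.4 and 16.1 CPM under oil and 59.2, 37.3, 45 and 40.0 under tamoxifen. The tamoxifen values all lay above the oil values (1.29 ± 0.50, edgeR adjusted p = 0.973; 1.25 without), in a comparison in which 0% of all genes passed. How many of all genes separate these groups as fully is not given here, so no weight is put on the separation. In wild-type microglia *Ebp* was 9.33, 40.8 and 71.1 CPM under oil, of which the last is S10, and 15.9 to 73.3 under tamoxifen, with wide overlap. The test of the difference between genotypes gave 1.51 ± 0.68 for *Ebp* (edgeR adjusted p = 0.815) and 0.88 without S10 and S11. In wild-type mice the smallest p belonged to *Pmvk* in oligodendrocytes, which was 65.8, 44.4 and 76.0 CPM under oil and 27.2 to 52.7 under tamoxifen (-0.68 ± 0.25, edgeR adjusted p = 1). It was -0.39 without S10, the highest oil library, and S11. *Apoe* in mural cells was 437, 565 and 625 CPM under oil and 519 to 1806 under tamoxifen (0.84 ± 0.36, edgeR adjusted p = 1). Its fold change was 0.91 ± 0.39 without S10 and S11.

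Between genotypes, *Apoe* had the lowest p. Over all cells it was 4163 to 5354 CPM in wild-type oil libraries and 2037 to 3518 in *Esr1* cKO oil libraries, without overlap (log2 fold change -0.70 ± 0.22, edgeR adjusted p = 0.832; -0.52 without S10 and S11). Under tamoxifen it was 3394 to 5289 in wild-type and 2486 to 4057 in *Esr1* cKO mice (-0.38 ± 0.19, edgeR adjusted p = 1). Astrocytes made up 27.4% to 29.1% of the kept cells in wild-type oil and 13.9% to 26.3% in *Esr1* cKO oil libraries, so fewer astrocytes and less *Apoe* per astrocyte cannot be told apart in the sum over all cells. Within the types the fold change under oil was below 0 in all 9, from -0.03 in mural cells to -0.65 in neurons, and -0.32 ± 0.19 in astrocytes themselves. The types come from the same libraries and may share free *Apoe* RNA, so these values are not separate evidence. The part of free RNA in them was not tested, and the count without S10 and S11 is not given here. In polydendrocytes *Apoe* was 3283, 2996 and 4370 CPM in wild-type oil libraries and 2239, 2064, 2638 and 1939 in *Esr1* cKO oil libraries, again without overlap (-0.63 ± 0.17, edgeR adjusted p = 0.955; -0.47 without). The summed level of all 9 astrocyte markers in polydendrocytes was 907 to 1185 CPM in the former and 596 to 971 in the latter, and its part in the *Apoe* difference was not tested. The other 10 pairs under 0.05, named after their values were seen, were *Apoe*, *Pmvk* and *Nr1h2* in oligodendrocytes, *Srebf1* and *Mvd* in astrocytes and in all cells, *Insig1* in all cells and *Ebp* in microglia on the lower side in *Esr1* cKO mice, and *Scap* in neurons on the higher side. *Pmvk* in oligodendrocytes was 30.5 to 39.2 CPM there against 44.4 to 76.0 in wild-type (-0.75 ± 0.26, edgeR adjusted p = 0.882). Without S10 and S11 its fold change was -0.47 ± 0.31. *Ebp* in microglia was -1.33 (edgeR adjusted p = 0.760). Without S10 and S11 no listed gene in microglia exceeded 0.72 in size in this comparison, and 0 had an unadjusted p under 0.05. How many of all genes separate the oil libraries of the genotypes as fully as *Apoe* and *Pmvk* is not given here. No weight is put on these separations, and 0% of all genes passed in this comparison.

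Under tamoxifen the smallest p between genotypes were those of *Apoe* in mural cells (453 to 774 CPM in *Esr1* cKO against 519 to 1806 in wild-type; -0.78 ± 0.32, edgeR adjusted p = 0.999) and *Npc2* in neurons (0.37 ± 0.17, edgeR adjusted p = 1). Without S10 and S11 these fold changes were -0.65 and 0.34. For the interaction the smallest p were those of *Srebf1* (0.93 ± 0.33, edgeR adjusted p = 0.904; 0.73 without S10 and S11) and *Pmvk* (0.96 ± 0.35, edgeR adjusted p = 0.904; 0.74 without) in oligodendrocytes. *Srebf1* there was 55.7, 81.7 and 69.4 CPM in wild-type oil, 44.9 to 59.8 in wild-type tamoxifen, 31 to 63.5 in *Esr1* cKO oil and 53.3 to 82.4 in *Esr1* cKO tamoxifen libraries. For *Srebf1* neighboring groups overlap in each case. For *Pmvk* the oil libraries of the genotypes did not overlap, as given above. The comparisons within and between genotypes share their libraries, so these values are not separate evidence. Red blood cell markers summed to 990 to 4705 CPM in wild-type oil, 2726 to 5753 in wild-type tamoxifen, 1249 to 2623 in *Esr1* cKO oil and 2157 to 8203 in *Esr1* cKO tamoxifen libraries, and their part in these values was not tested. Choroid plexus markers summed to 475 to 562 CPM in wild-type oil and 502 to 7380 (median 567) in wild-type tamoxifen libraries. They were 523 to 686 in *Esr1* cKO oil and 497 to 612 in *Esr1* cKO tamoxifen libraries, and their part was not tested either. None of the 35 other sterol and lipid genes passed in any of the 5 comparisons with edgeR as fitted here. Without the filter on low counts 1 did, *Apod* in endothelial cells, which was lower under tamoxifen in *Esr1* cKO mice (-1.15 ± 0.26, edgeR adjusted p = 0.0211).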

How the data were processed

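Single cells of the hypothalamus-POA of 16 mice were profiled by Drop-seq, with 1 library per mouse. The authors deposited 1 table per mouse, whose values are whole-number UMI counts of each gene in each barcode, not normalized. Their processing notes name STAR 2.6, Seurat 3.6.1 and the mm10 build, and the counting program and annotation are not given in the sources used here. A barcode was kept as a cell if its genes numbered between 200 and 4000 and its mitochondrial share was below 15%, which left 1717573 to 5457033 UMIs per library. Intervals and levels cover counting in these libraries, and the few UMIs per cell limit low genes.

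Clustering used Seurat 5.3.0 under R 4.3.3 and left out the sterol and lipid genes: 2000 variable genes, anchors of 30 dimensions joining the groups, 20 components, and resolutions of 0.05 and, for finer clusters, 0.5. Clusters were named from marker lists, with at least 3 markers at 20 UMIs or more. Scrublet (scanpy 1.11.5, rate 0.05) called doublets, which 1 alternative left out.

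UMIs were summed per library and type (at least 10 cells). edgeR 4.0.16 (glmQLFit and glmQLFTest, TMM, filterByExpr, Benjamini-Hochberg over all genes tested, two-sided) compared the 4 groups in 1 fit, and each type with the rest with the library as a block. The study's own test took cells as units, whereas here the mouse is the unit and p-values measure the spread between mice. DESeq2 1.42.0, its size factors, no filter, more than 500 genes per cell, library numbers in successive fours as a term, no doublets, no cells with a shared barcode, the unnamed endothelial cells counted as endothelial and leaving out each library were tried. The scripts were checked on simulated counts. The members, gene lists and comparisons were chosen with earlier results of these data known, and levels follow from 9 types in 16 libraries. Genes given in full are the 3 highest per type by fold change, *Ebp* and *Dhcr7*, and the 2 smallest p per group comparison. Promoter sequences and starts come from RefSeq on GRCm38.p6.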

Additional observations from a re-analysis of the deposited data

Results flagged for a closer look

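Of 42 sets of 4 or 5 libraries checked for a library far from the others of its group, 1 stood out, and chance alone gives about 1 in 20. *Pmvk*, the phosphomevalonate kinase gene, was 60.0 CPM in oligodendrocytes of *Esr1* cKO tamoxifen library S2, while the other 3 libraries of that group held 36.6 to 40.3 CPM.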

How the results depend on the processing

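The group comparisons gave 0 listed genes past the threshold with all 16 libraries and under all 25 alternatives. Of these, leaving out cells that share a barcode and counting the 1752 unnamed cells of the endothelial cluster as endothelial were chosen after seeing the data, the latter because a repeat of the integration with tied genes in another order named these cells arterial endothelial. Of the counts per type, the astrocyte genes lower went from 1 to 3 without the filter on low counts and the endothelial genes higher from 4 to 2 with DESeq2. Fibroblast genes higher went from 1 to 2 in cells with more than 500 genes. Mural genes higher went from 1 to 0 with DESeq2 and with its size factors and to 2 without the filter or with the unnamed cells counted as endothelial, where endothelial genes higher were 5. Both counts with the unnamed cells include *Nr1h3*, which entered the tests only through them. Neuron genes higher went from 4 to 2 with DESeq2, with its size factors and without the filter. Leaving out 1 library gave 1 to 2 lower in astrocytes (2 without S1 or S3), 0 to 2 higher in mural cells (0 without S15, 2 without S8 or S16) and 2 to 4 higher in neurons (2 without S12, S13, S14 or S15). With the unnamed cells counted as endothelial, *Insig2* in endothelial cells went from -0.22 to 0.035 and its call was lost. The other counts per type stayed within 1.5 times their value.

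The wild-type tamoxifen fold change of *Ebp* over all cells, -0.0022, turned to 0.30 without S10 and S11, 0.014 without the filter, 0.091 with library numbers in fours as a term, 0.024 without doublets and 0.032 without shared barcodes. Leaving out 1 library gave -0.24 (without S1) to 0.31 (without S10), with 6 of the 16 above 0. That of *Dhcr7* ran from -0.061 without S1, the only library to turn it, to 0.36 without S10. No call attached to either. Calls of single genes were lost for *Ebp* in endothelial cells with DESeq2 (0.34), *Insig2* in fibroblasts without the filter (0.40), and *Nr1h2* in mural cells with DESeq2 (0.39), its size factors (0.40) and without S15 (0.50). The cause of these changes was not tested. No replicate number is shared between groups. The study's methods give 4 collection days of 4 mice, and no label ties a library to a day. With successive fours of library numbers as a term, which may match those days, 0 listed genes passed in any group comparison, with a smallest adjusted p of 0.231 in edgeR. The last of these fours holds no wild-type oil library. Depth limits the group comparisons: a member at 20 to 40 CPM rests on few UMIs per library and type, and the wild-type oil group has 3 mice, 2 without S10.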
